A study of Drosophila melanogaster with 6 samples.

Results

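Long noncoding RNA (lncRNA) genes make transcripts that are processed like messenger RNA but hold no long reading frame. The lncRNA genes described here are those with enough reads in fly eyes to be measured one by one, and their levels were compared in day 40 and day 10 eyes of Drosophila melanogaster. A gene was taken if it was counted on its own, if its FlyBase symbol begins with lncRNA, and if its mean over the 6 libraries was at least 20 normalized counts, which are counts divided by a size factor for each library. The dosage compensation RNAs roX1 and roX2 were left out. These conditions gave 176 genes, which is 11.4% of the 1543 lncRNA genes counted on their own and a small part of the 14537 gene rows in the files. The genes were selected on their mean count over all 6 libraries, so their level is given below as a description. A further 207 rows are groups of overlapping genes that hold a lncRNA gene and were not taken, because reads of their members were counted together. Hsromega, the stress-induced nuclear RNA, is in one such group. Among the lncRNA genes counted on their own, 24 had 0 counts in all 6 libraries.

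In flies, lncRNAs are known for expression that is often restricted to 1 tissue, with the nervous system and testis as rich sources. Many lie in introns of protein-coding genes or beside them, some act in the nucleus on chromatin or on nuclear bodies, and others act in the cytoplasm on proteins or RNA granules. For most genes with only a CR number no function is known. Sequences of these transcripts were not used here.

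Eyes were dissected from male flies at day 40 (3 libraries) and at day 10 (3 libraries) after eclosion, and ribo-depleted total RNA was sequenced. The labels call the flies WT, and all of them carried the alleles w and ry[506], UAS-GFP-Msp300KASH inserted at attP2 and rh1-GAL4, which together give KASH-GFP on photoreceptor nuclei. The rh1 promoter drives GAL4 in outer photoreceptors, but RNA came from the whole dissected eye, which also holds inner photoreceptors, pigment cells, cone cells and other cells. Counts of gene reads ranged from 8476220 to 12686867 in the day 40 libraries and from 8946125 to 15029770 in the day 10 libraries. In such bulk samples fewer cells of a type and less RNA per cell cannot be told apart. The authors made the counts without using strand, so reads from a lncRNA gene and from RNA of the opposite strand at the same place cannot be told apart either.

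Photoreceptor markers were abundant, all 19 found were tested and none passed the test between ages, with summed levels of 939457 to 1123670 normalized counts at day 40 and 785923 to 1396240 at day 10. In 6 of the 19, Rh3, Rh4 and Rh6 among them, every day 40 library was above every day 10 library (log2 changes of 0.20 to 0.78). Over all gene rows tested, the ages did not overlap in 20.2%, with both directions counted. Markers of other cells were present too. Of 7 fat body markers 4 were lower at day 40, with log2 changes of -3.23 to -1.15. The sums of this list, 90928 to 103607 at day 40 and 103286 to 129469 at day 10, were mostly the row of apolpp. That row did not pass, with 89133 to 100720 at day 40 and 94750 to 123213 at day 10. Of 5 cone cell and lens markers 2 were lower, with sums of 18090 to 19399 at day 40 and 23409 to 33254 at day 10. One of 7 hemocyte markers was lower, Hml (log2 change -1.29), with sums of 7476 to 8678 at day 40 and 9834 to 12050 at day 10 that did not overlap. One of 9 pigment cell and chromophore markers was lower, the pigment transporter gene w (-1.37). All flies carried a w allele, so the level of w may not mark pigment cells here. The sums of this list went the other way, with 39931 to 41439 at day 40 and 29370 to 39863 at day 10. No marker of these 4 lists was at 0, and their part in the changes of the lncRNA genes was not tested. In the remaining lists no marker passed: glia (7 tested), neuron (5), muscle (8), testis and male tract (2) and trachea (3). One library stood apart: day 10 replicate 1 had 21.2 junction reads per 100 gene counts, against 23.9 to 27.6 in the other libraries, and it was the lowest library for 51 of the 176 lncRNA genes and the highest for 43.

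Most of the 176 lncRNA genes lay inside another gene. By the RefSeq positions of Release 6, to which all 176 could be matched, 102 of them (58.0%) lay within the span of a protein-coding gene, against 19.2% of the 1367 lncRNA genes under the count minimum. Because they were counted on their own, these genes share no counted exon with the gene around them. The gene around a well-counted lncRNA gene was itself abundant in the eye, with a median level of 2836 normalized counts for the 95 that had a counted row, against 992 for the gene around 256 less counted lncRNA genes. The share of lncRNA genes that reached 20 counts followed the level of the surrounding gene. It was 4.17% (1 of 24) where that gene had under 100 counts, 10.2% (12 of 118) from 100 to 1000, 31.1% (38 of 122) from 1000 to 3000, and 50.6% (44 of 87) from 3000 upward. Outside protein-coding genes it was 6.28% (74 of 1178). Across the 351 lncRNA genes within a counted gene, Spearman's rho between the 2 levels was 0.56, also with the lncRNA level given per kb of exon. Both levels come from the same libraries, and genes are not independent replicates. In total RNA, reads on an intronic lncRNA gene and reads on the unspliced RNA of the gene around it cannot be told apart here. The counts hold no strand, and strand would not separate 2 genes that lie on the same one.

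**Figure D1:**
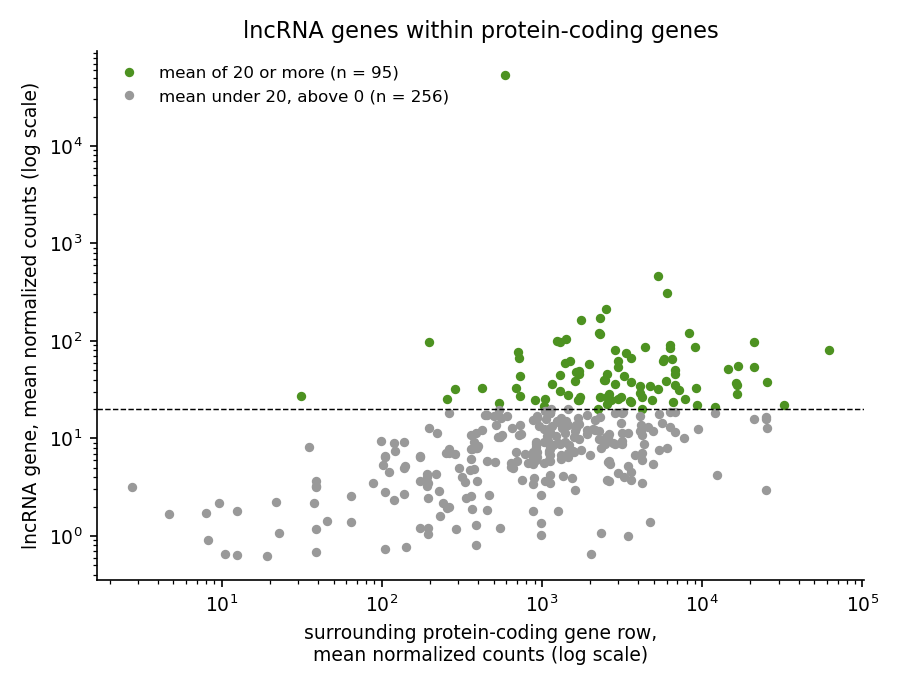
Mean normalized counts over the 6 libraries for 351 lncRNA genes that lie within a protein-coding gene (vertical axis, log scale) against the row of the surrounding gene (horizontal axis, log scale), with green points for genes with a mean of 20 or more (n = 95), grey points for the others (n = 256) and a dashed line at 20. The green points gather on the right, where the surrounding gene has 1000 counts or more, and noe at the top is far above the gene around it.

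The 176 genes spread over all chromosome arms, with 46 on 3L, 40 on 3R, 36 on 2L, 28 on 2R, 21 on X and 5 on chromosome 4. Chromosome 4 held 2.84% of them, against 0.439% of the less counted lncRNA genes, and 2L held 20.5%, against 29.0%. Their structure was simple, since 92 have a single exonic part, 84 have 2 or more, and 137 have 1 annotated transcript. CR31781, with 6 annotated transcripts, has the most. Exonic length ranged from 201 bases to 9247 bases with a median of 836.5 bases, against 576 bases in the less counted genes. The count minimum was not set per base, so the selection itself favored longer genes.

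Levels were very uneven. The median gene had a mean of 42.6 normalized counts, with quartiles of 26.8 and 79.5, and only 29 genes reached 100 and 5 reached 1000. Just 3 genes, noe, CR40469 and mimi, held 85.5% to 87.9% of all counts on the 176 genes at day 40 and 88.6% to 90.8% at day 10. The other 173 genes together held 0.122% to 0.137% of all gene counts at day 40 and 0.116% to 0.125% at day 10. At the edge of the count minimum, CR45472 (20.01), CR45125 (20.03) and CR44295 (20.2) were just inside. CR32027 (19.9), CR45582 (19.9) and flam, the source of many piRNAs that silence transposons in the ovary soma (mean 19.99), were just outside.

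The gene noe (FBgn0026197, 3L, 17400347 to 17401348 in build BDGP6), a noncoding RNA known from the nervous system, had the highest count and ranked 11 among all gene rows. It had 59613, 44947 and 43905 normalized counts at day 40 and 52333, 67722 and 53209 at day 10. Its ages overlapped, and the log2 change of -0.23 (SE 0.18) did not pass the test (adjusted p = 0.652 in edgeR's quasi-likelihood test). It lies within blot, which had only 629 to 740 normalized counts at day 40 and 446 to 512 at day 10, and which rose by 0.51 on the log2 scale (SE 0.11, adjusted p = 0.055).

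The short gene CR40469 (FBgn0058469, X, 122493 to 122706) came next and ranked 20 among all rows. It had 25337, 34837 and 27392 normalized counts at day 40 and 69724, 29481 and 23824 at day 10. The high value of day 10 replicate 1 sets its log2 change of -0.49 (SE 0.36, adjusted p = 0.617), which is 0.13 without that library. Given per kb of exon, which spans 214 bases here, it had the highest level of all the lncRNA genes described, at 164015 normalized counts per kb, ahead of noe at 53514 per kb, mimi at 10137 per kb, CR45054 at 762 per kb and CR44922 at 575 per kb.

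The gene mimi (FBgn0051451, 3R, 23983503 to 23985065), whose RNA is known as a scaffold of granules in mature neurons, had 14502, 14384 and 15791 normalized counts at day 40 and 13787, 18612 and 17985 at day 10. Its ages overlapped and it ranked 72 among all rows. The next 2 genes were far less abundant than mimi. CR45054 had 1419, 1555 and 1476 normalized counts at day 40 and 1617, 1464 and 1327 at day 10. CR44922 had 1320, 1446 and 1592 at day 40 and 1229, 1768 and 1324 at day 10. Both log2 changes were 0.01. Of the 10 most abundant genes the other 5, CR45102, CR30055, CR31781, CR32218 and CR44417, had means of 213 to 509 normalized counts, log2 changes of -0.02 to 0.19 and overlapping ages. None of the 10 passed the test.

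The comparison of day 40 with day 10 asked which of these lncRNA genes changed as the eye aged. All 176 passed the filter on low counts of edgeR and were tested together with all other gene rows (9255 in all), with a threshold of 0.1 on the adjusted p. Only 6 passed, 4 higher and 2 lower at day 40, which is 3.41% of the 176, against 4.12% of all rows tested. In the higher direction the share was 2.27% against 2.14% of all rows, and in the lower direction 1.14% against 1.98%. The number called was 3 (1.70%) when any one of the day 40 libraries was left out, and the share of all rows called fell as well, to 1.18% to 1.57%. At an unadjusted p under 0.05, 16 genes passed (9.09%, 13 higher and 3 lower), against 14.3% of all rows. The 3 values of one age all lay above the 3 of the other in 26 genes, 21 higher and 5 lower at day 40, which is 14.8% against 20.2% of all rows.

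The median log2 change was 0.07, with quartiles of -0.15 and 0.34, and 105 of 176 changes were above 0 (59.7%), against a median of -0.01 and 48.9% above 0 over all rows. This median was -0.01 without day 40 replicate 3 and ranged up to 0.13 without other libraries. Most changes were small, with 134 within 0.5 and 12 beyond 1 on the log2 scale. The calls were also read by level, with no test of the shares. Of the 29 lncRNA genes with at least 100 counts 4 were called (13.8%), against 222 of 4212 protein-coding genes at that level (5.27%). Of the 147 genes with 20 to 100 counts 2 were called (1.36%), against 54 of 1463 protein-coding genes (3.69%). For genes of 20 to 100 counts the spread between libraries was close in both kinds of gene. The median coefficient of variation was 21.9% in lncRNA genes and 19.8% in protein-coding genes at day 40, and 28.2% and 27.9% at day 10. At 100 counts and over it was larger in lncRNA genes, 11.1% against 8.56% at day 40 and 17.4% against 14.7% at day 10.

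**Figure D2:**
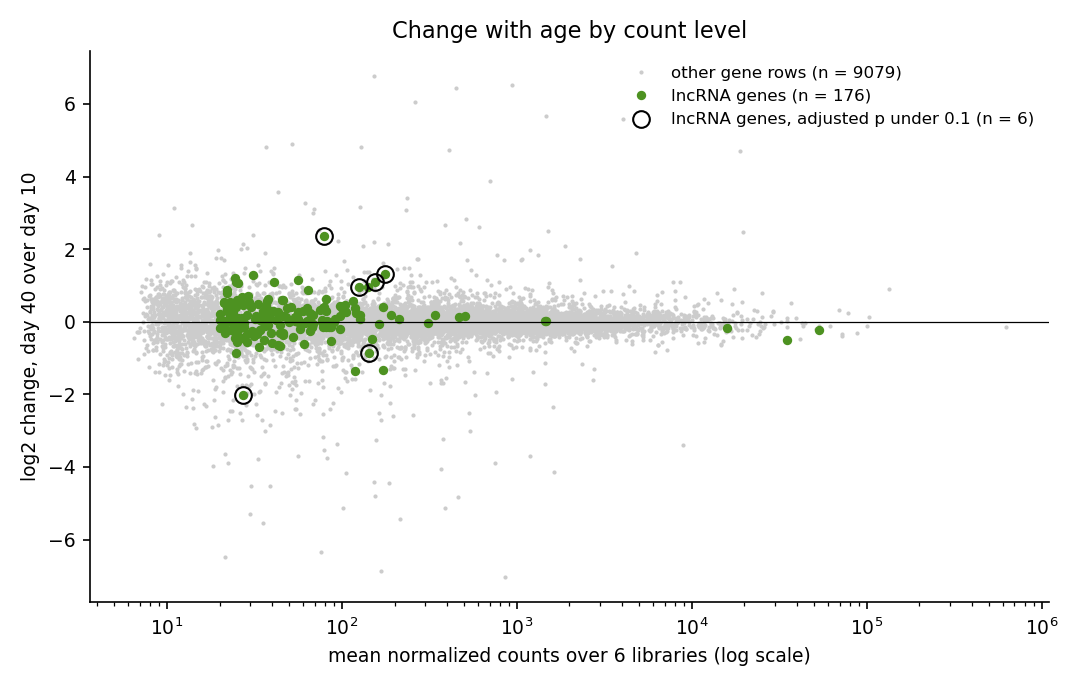
Log2 change of day 40 over day 10 from the edgeR fit (vertical axis) against mean normalized counts over the 6 libraries (horizontal axis, log scale) for the 176 lncRNA genes (green), the 6 of them with an adjusted p under 0.1 (circled) and all other rows tested (grey). Most green points lie near 0 between 20 and 100 counts, and 4 of the 6 circled points lie above 100.

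All 6 genes that passed lay outside protein-coding genes. None of the 102 lncRNA genes inside a gene passed, against 6 of 74 outside (8.11%) and 4.12% of all rows tested. The difference between the 2 sets rests on these 6 calls and was not tested. The nearest counted protein-coding gene of each of the 6 did not pass either, with log2 changes of -0.24 to 0.49 and a lowest adjusted p of 0.319.

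CR42646 (FBgn0261429, 2R, 5363253 to 5367357, with 9 exonic parts) changed most. It had 127, 130 and 139 normalized counts at day 40 and 21.1, 22.3 and 32.1 at day 10. Every day 40 library was far above every day 10 library, with a log2 change of 2.36 (SE 0.25, adjusted p = 0.00218 in edgeR), and the change passed in all alternatives run. The gene CG10417, which lies 149 bases away, had 647 to 774 normalized counts at day 40 and 546 to 777 at day 10 and a log2 change of 0.10.

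CR44441 (FBgn0265634, chromosome 4, 194732 to 195900) had 212, 227 and 199 normalized counts at day 40 and 92.5, 104 and 99.3 at day 10. The ages were well apart and the libraries of each age close together, with a log2 change of 1.10 (SE 0.16, adjusted p = 0.0108). CR45517 (FBgn0267073, X, 5428483 to 5429256) had 345, 206 and 208 at day 40 and 118, 86.0 and 101 at day 10. Day 40 replicate 1 was the highest library, and the log2 change was 1.31 (SE 0.24, adjusted p = 0.0269), or 1.04 at the least when one library was left out. Both genes passed in all alternatives run. CR45267 (FBgn0266805, 2R, 8019176 to 8026595), a long gene of 1 exon that lies 4688 bases from Optix, an eye-field transcription factor gene, had 216, 144 and 135 at day 40 and 75.3, 99.0 and 78.4 at day 10. The log2 change was 0.96 (SE 0.23, adjusted p = 0.0733), and it did not pass when any one of the 6 libraries was left out (adjusted p 0.1 to 0.249).

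Like that of CR45267, the calls of both genes that fell depended on which libraries were used. CR45242 (FBgn0266777, 3L, 10269482 to 10270353) had 8, 13.4 and 10.1 normalized counts at day 40 and 51.6, 49.9 and 29.9 at day 10. The ages did not overlap and the log2 change was -2.03 (SE 0.41, adjusted p = 0.0402), but it did not pass when any one of the day 40 libraries was left out (adjusted p up to 0.162). The gene cherub (FBgn0262972, 3R, 11247631 to 11256123), whose RNA is known from larval neural stem cells and their tumors, had 80.0, 125 and 98.9 at day 40 and 156, 187 and 208 at day 10. The log2 change was -0.86 (SE 0.22, adjusted p = 0.0867), and the call held without day 10 replicate 1 only (adjusted p 0.0531 to 0.275 over the 6 libraries left out in turn).

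**Figure D3:**
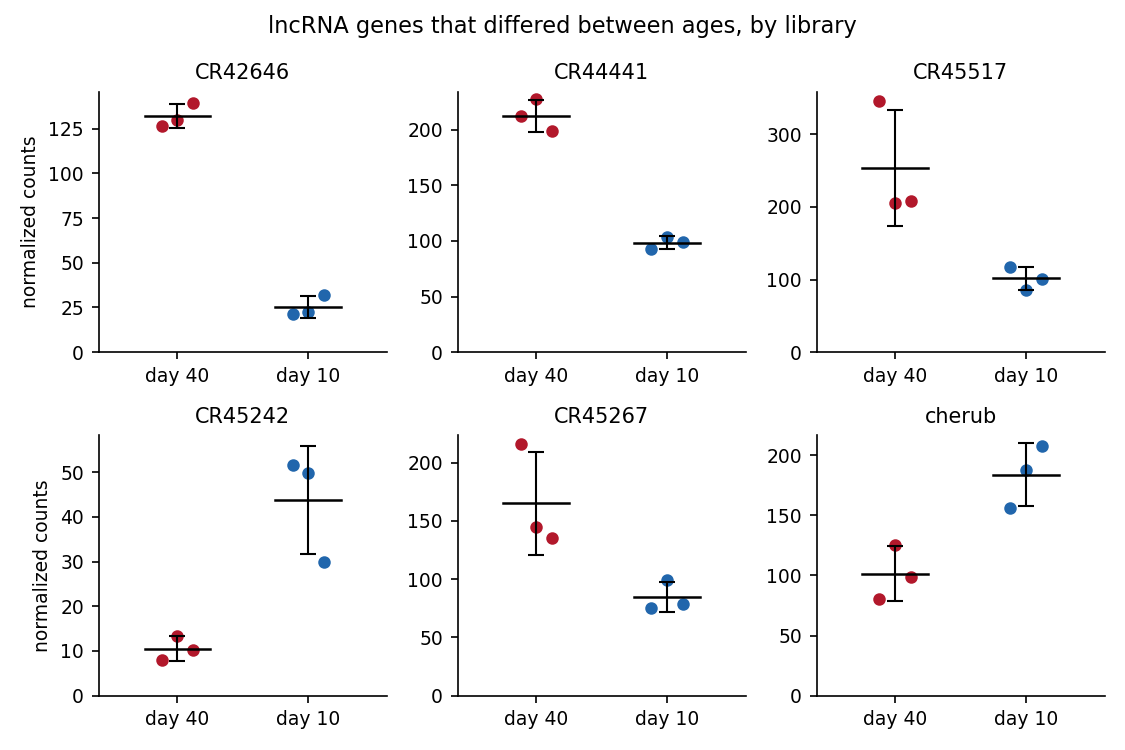
Normalized counts (vertical axes, from 0) of the 6 lncRNA genes with an adjusted p under 0.1, with day 40 on the left and day 10 on the right of each panel, a point per library and a line and bar for the mean and SD (n = 3). In each gene the ages do not overlap, and the gap is widest relative to the spread in CR42646 and CR44441.

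The 10 genes next in order of p-value did not pass. CR32553 had 42.7, 64.9 and 59.2 normalized counts at day 40 and 23.8, 29.2 and 24.6 at day 10, without overlap (log2 change 1.10, adjusted p = 0.119). CR44832 had 191, 174 and 199 at day 40 and 54.2, 122 and 108 at day 10, also without overlap (log2 change 0.97, adjusted p = 0.122). CR44138, within CG9813, had 108, 57.1 and 68.5 at day 40 and 27.8, 28.4 and 46.3 at day 10 (log2 change 1.15, adjusted p = 0.148). DESeq2 called these 3 genes as well, with adjusted p-values of 0.0962 for CR32553, 0.0206 for CR44832 and 0.0561 for CR44138. The other 7 were CR45425, CR45564, CR44602, CR45262, CR45966, CR45761 and CR45961, with adjusted p-values of 0.221 to 0.346. The last of them, CR45961, had the only negative change among the 10 (-0.85), and it lies within SPoCk.

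The reads of CR42646 were not spread evenly along the gene. Its exonic parts run from E001 to E009 in order of position, and both annotated transcripts hold E008 (5366469 to 5366737) and E009 (5366804 to 5367357). E008 had 34.7, 36.9 and 44.8 normalized counts at day 40 and 1.32, 1.54 and 2.24 at day 10. E009 had 68.0, 69.4 and 60.8 at day 40 and 3.97, 4.61 and 4.48 at day 10. Summed over these 2 parts the mean was 105 ± 1.95 at day 40 and 6.05 ± 0.722 at day 10 (SD, n = 3), 17.3 times as high. The 7 parts before them, chosen like the sum after their values were seen, had 59.9 ± 9.78 at day 40 and 32.2 ± 11.5 at day 10, 1.86 times as high. The junction J017 that joins E008 to E009 had 5, 9 and 19 reads at day 40 and 0, 0 and 0 at day 10. Those 0 reads stand against 88 reads on the gene in the 3 day 10 libraries, which allows a share of up to 3.41%, counting error only. The parts it joins had few reads at day 10, with 1, 2 and 3 on E008 and 3, 6 and 6 on E009. At day 40 they had 26, 33 and 53 on E008 and 51, 62 and 72 on E009. The 0 reads therefore do not show that the junction was unused at day 10.

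Usage was then asked of each exonic part and junction, as its share of the counts on the gene. In CR42646, E009 took 53.7%, 53.4% and 43.6% at day 40 and 18.8%, 20.7% and 14.0% at day 10, and E008 took 27.4%, 28.4% and 32.1% at day 40 and 6.25%, 6.90% and 6.98% at day 10. In the other direction, E006 took 6.32%, 5.17% and 8.48% at day 40 and 12.5%, 24.1% and 27.9% at day 10. The ages did not overlap in any of these 3 parts, and the unadjusted p-values of edgeR's quasi-likelihood test were 0.00126 for E009, 0.00145 for E008 and 0.00767 for E006 (J017 had 0.0113). After adjustment over all features none of them passed.

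**Figure D4:**
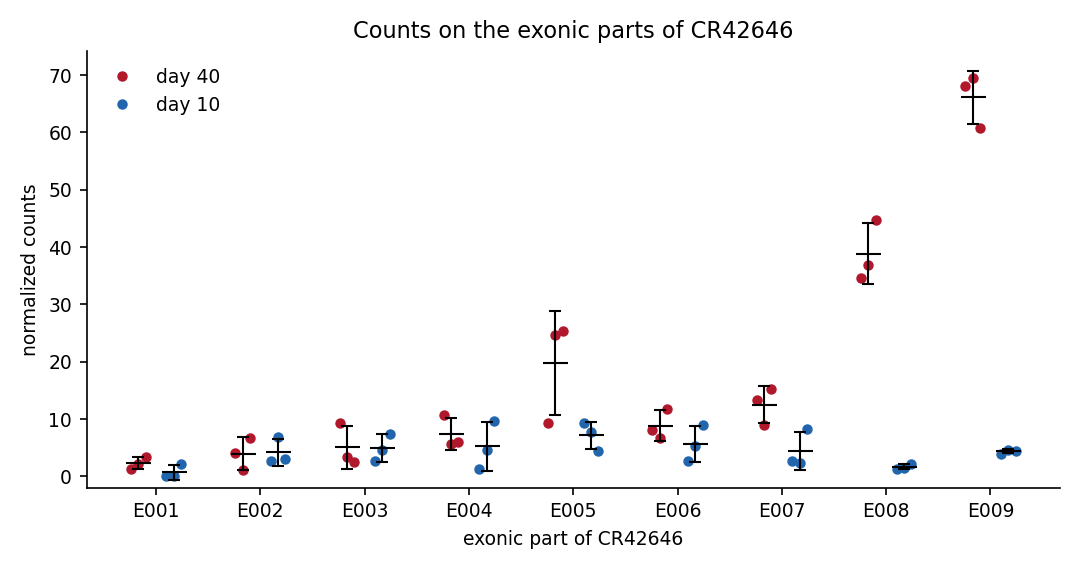
Normalized counts (vertical axis) on the 9 exonic parts of CR42646 in order of position (horizontal axis), with red points for the day 40 libraries, blue points for the day 10 libraries and bars for the mean and SD (n = 3 each). The ages lie far apart in E008 and E009, where day 10 stays under 5, and overlap in E001, E002, E003, E004 and E006.

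Of all features of the lncRNA genes, 221 in 80 genes were tested (199 exonic parts, 17 annotated junctions and 5 new junctions), and 0 had an adjusted p under 0.05, against 2 of 59968 features in all (0.00334%). DESeq2 on the same counts called 0 of the 221 too, and 8 features in 3 genes (3.62%) had an unadjusted p under 0.05 in edgeR, against 2.87% of all features. The authors, with JunctionSeq and a false discovery rate under 0.05, did report differences in usage between these ages in eyes. The test here called very few features of any gene, so its 0 does not show that usage stayed the same. The other 96 genes had no feature to test, most of them because they have a single exonic part. Beside CR42646 these 3 genes were CR45177 and CR43855. In CR45177, a gene of 2 parts, E002 took 61.5%, 19.0% and 33.3% at day 40 and 77.8%, 80.8% and 65.4% at day 10 (unadjusted p = 0.0204). These shares rest on few reads, with 8, 4 and 7 on E002 at day 40 and 7, 21 and 34 at day 10. In CR43855, within Sema1a, the part E003, which only 1 of its 2 transcripts holds, took 84.6%, 85.2% and 92.0% at day 40 and 84.2%, 69.4% and 34.0% at day 10 (unadjusted p = 0.0478), where day 10 replicate 3 stood low. It too had few reads, 11, 23 and 23 at day 40 and 16, 25 and 18 at day 10.

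A lncRNA gene and the gene around it could differ, as in Hr38, an activity-regulated nuclear receptor gene, which was picked out after the values were seen. Hr38, counted together with CG2617, had 2993, 3466 and 3011 normalized counts at day 40 and 1911, 1668 and 745 at day 10, a log2 change of 1.14 (SE 0.28, adjusted p = 0.0798). CR44187 (2L, 20710096 to 20711006), which lies within it, had 98.7, 56.0 and 135 at day 40 and 438, 262 and 45.6 at day 10. CR44188 (2L, 20711202 to 20712300), 195 bases further on, had 41.3, 35.8 and 117 at day 40 and 300, 187 and 31.4 at day 10. At day 10, replicate 1 was highest and replicate 3 lowest in Hr38 and in both lncRNA genes, and the ages overlapped in both lncRNA genes. Neither passed, with log2 changes of -1.32 (SE 0.64, adjusted p = 0.415) and -1.35 (SE 0.71, adjusted p = 0.450). As a share of the Hr38 row, CR44187 had 3.30%, 1.61% and 4.49% at day 40 and 22.9%, 15.7% and 6.11% at day 10. CR44188 had 1.38%, 1.03% and 3.87% at day 40 and 15.7%, 11.2% and 4.21% at day 10. The shares of both genes were thus lower in every day 40 library than in every day 10 library. The Hr38 row they are divided by was itself higher at day 40, and the shares were not tested. The closest shares of the ages were 4.49% against 6.11% in CR44187 and 3.87% against 4.21% in CR44188.

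**Figure D5:**
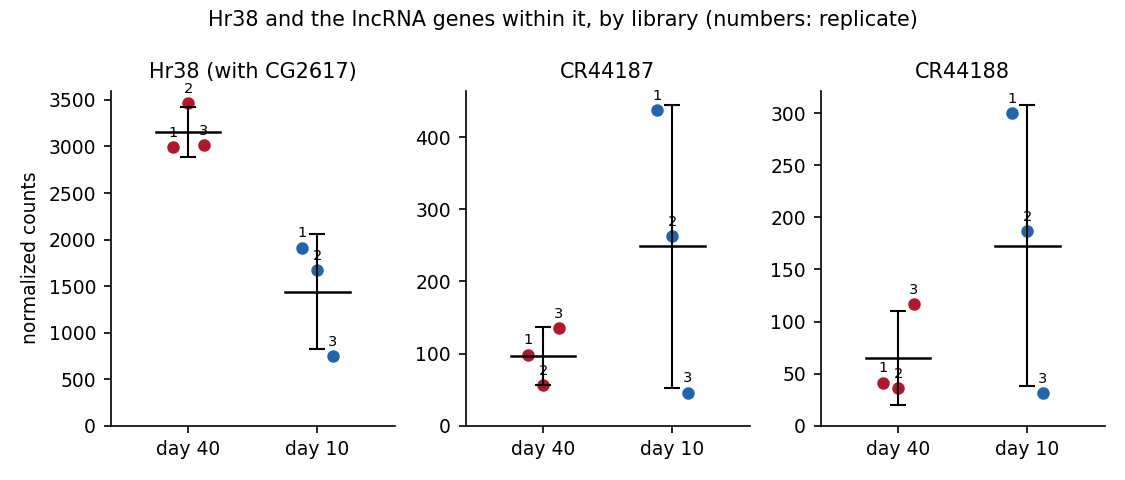
Normalized counts (vertical axes, from 0) of the Hr38 row and of the 2 lncRNA genes within it, with day 40 on the left and day 10 on the right of each panel, a numbered point per replicate and a line and bar for the mean and SD (n = 3). Hr38 is higher in all 3 day 40 libraries, while replicates 1 and 2 of day 10 are the highest libraries in CR44187 and CR44188.

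Across the 95 lncRNA genes with a tested row around them, 59 had a log2 change of the same sign as that row, although none of these lncRNA genes passed, and the agreement was not tested. Pearson's r between the 2 log2 changes was -0.17 and Spearman's rho 0.14, and without the 2 genes in Hr38 these were 0.20 and 0.22 (n = 93). Both changes come from the same 6 libraries. The rows around them had 83 distinct entries, of which only Hr38 and blot passed the test. Some hosts held several of the lncRNA genes: Ten-m held CR45963, CR45964 and CR45965, and sick held CR43097, CR43828 and CR45183.

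Among the lncRNA genes outside protein-coding genes, 51 had a tested protein-coding gene within 5000 bases, and in 5 cases that gene passed the test. In 4 of the 5 the log2 change of the lncRNA gene had the same sign, though none of these lncRNA genes passed and the agreement was not tested. A wider set of 55 lncRNA genes had such a neighbor without overlap, some of them within another gene. Over these 55, Pearson's r between the 2 log2 changes was 0.25 and Spearman's rho 0.19. CR45425 had 37.3, 39.2 and 26.2 normalized counts at day 40 and 11.9, 19.96 and 14.9 at day 10 (log2 change 1.10, SE 0.38). The gene CG16758, 183 bases away, rose by 1.08 on the log2 scale (adjusted p = 0.00827). CR44365 had 48.0, 31.3 and 24.5 at day 40 and 26.4, 8.44 and 14.9 at day 10 (log2 change 1.08, SE 0.49), and CG42808, 656 bases away, rose by 1.15 (adjusted p = 0.0449). CR44938 had a log2 change of -0.68 (SE 0.39) beside the circadian repressor gene cwo, which fell by 0.60 (adjusted p = 0.0496). CR44506 went the other way, with a log2 change of -0.50 (SE 0.40) beside Obp56a, an odorant-binding protein gene, which rose by 2.40 (adjusted p = 0.0758).

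Of the lncRNA genes with a FlyBase name of their own, cherub alone passed. Irar, within the insulin receptor gene InR, had 77.3, 84.0 and 61.7 normalized counts at day 40 and 78.0, 89.8 and 76.9 at day 10, with overlap. The alphagamma-element gene CR32865 belongs to the heat-shock-induced repeats of the Hsp70 region, and it had 66.7, 80.6 and 85.4 at day 40 and 112, 33.8 and 81.4 at day 10. Its log2 change was 0.05 (SE 0.39). Of 13 tested rows of a heat shock list 1 rose, that of Hsp22, which was counted together with CG4456, and 1 fell, that of DnaJ-1, with a median log2 change of -0.10. The gene dntRL had 45.3, 34.7 and 24.5 at day 40 and 34.4, 23.0 and 41.8 at day 10, with overlap.

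CR33942, whose RNA is known to strengthen the immune response of flies and which was named here for that role, had 185, 130 and 102 normalized counts at day 40 and 148, 79.8 and 53.8 at day 10. Its ages overlapped (log2 change 0.58, SE 0.36, adjusted p = 0.536). Of 18 tested antimicrobial response genes, 3 of them in rows counted together with other genes, 14 rose and 0 fell, with a median log2 change of 2.87, and the list was drawn up with earlier results of these data known. A list of 10 tested proteins of omega speckles, the nuclear bodies built on Hsromega RNA, had no gene that passed and a median of -0.09.

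Spread between libraries of the same age differed widely among the lncRNA genes. CR46035, within the chromatin remodeling gene osa, had 90.7, 90.7 and 88.7 normalized counts at day 40 and 89.9, 93.6 and 88.9 at day 10, the smallest spread. CR44441 and CR45736 came next. CR45736 had 129, 124 and 138 at day 40 and 118, 137 and 120 at day 10. CR45464 had the largest, with 32.0, 20.1 and 35.5 at day 40 and 1.32, 26.9 and 17.2 at day 10, where replicate 1 was nearly empty. CR44526 had 42.7, 15.7 and 20.3 at day 40 and 41.0, 9.98 and 12.7 at day 10, so that replicate 1 was high at both ages, and CR44187 was the third. Neighboring lncRNA genes varied together in some pairs and not in others. For neighbors within 5000 bases, Pearson's r between log2 levels over the 6 libraries ranged from -0.26 (CR43751 and CR45290) to 0.99 (CR45533 and CR43199). It was also 0.97 in CR44187 and CR44188, but -0.20 in CR46036 and CR46035 and 0.18 in CR45456 and CR45457. CR45533 had 92.0, 135 and 144 at day 40 and 160, 220 and 143 at day 10, and CR43199, 263 bases away, had 22.7, 39.2 and 38.0 at day 40 and 48.9, 66.8 and 41.8 at day 10, with the same highest and lowest library. The gene CG11368, 10 bases from CR43199, had 12.0, 73.9 and 130 at day 40 and 350, 194 and 767 at day 10 (log2 change -2.56, adjusted p = 0.103).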

How the data were processed

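Dissected male eyes were measured in 3 libraries at day 40 and 3 at day 10. The authors deposited raw counts per gene, exonic part and junction. The submitters' processing notes name Trimmomatic, TopHat and build BDGP6, with versions not given in the sources used here. Positions are those of the authors' deposited table, with 1 added to each start. Its other columns hold the authors' own comparison of usage and were not used. The genes and lists were chosen with earlier results of these data known. The rule took lncRNA genes with a mean of at least 20 counts after median-ratio size factors, and all 176 were found in RefSeq, Release 6. The gene around a lncRNA gene is the shortest protein-coding gene that spans it. The nearest gene is the closest protein-coding gene with a mean of at least 20 counts.

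For expression, edgeR 4.0.16 (R 4.3.3) was run on all gene rows (TMM, filterByExpr, quasi-likelihood test), with Benjamini-Hochberg adjustment and a threshold of 0.1. Usage was tested on the count of a feature and the remaining counts of the gene, with library terms, for single genes and features with a mean of at least 5 counts, and a threshold of 0.05. Both tests were tested on simulated data. DESeq2 1.42.0, other normalizations, filters and thresholds, each library left out and a replicate block were alternatives. The replicates are called biological in the series' text, and p-values measure the spread between these libraries. An exact test of 3 against 3 values cannot give a p under 0.1. Named genes were those past the threshold, the 10 with the lowest p after them, the most abundant (10 by count, 5 per kb), those with a FlyBase name, the leading usage features, and the 3 at each edge of count and spread. Others were named after their values were seen. Promoter motifs were not searched.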

Additional observations from a re-analysis of the deposited data

How the results depend on the processing

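The number of lncRNA genes called, 6 in all, was 3 to 8 when one library was left out (1.70% to 4.55%), where the share of all rows called was 1.18% to 4.69%. The genes called higher numbered 7 with DESeq2 and 3 to 6 without one library, against 4. The genes called lower numbered 1 at an adjusted p under 0.05 and 0 to 2 without one library, against 2. CR45267 and cherub did not pass at 0.05. The number of genes in the set, 176, became 324 with a mean of at least 10 and 74 with a mean of at least 50. The replicate numbers did not pair the libraries (correlations of same-numbered libraries 0.0001, -0.01 and 0.15), and with a replicate block 5 were higher and 2 lower, with CR44832 added (adjusted p = 0.083). The usage count of 0 stayed 0 in all alternatives run. Upper quartile normalization gave CR45054 a log2 change of -0.0064 and CR44922 one of -0.0010. Without one library the log2 change ranged from -0.76 to 0.13 in CR40469, from -0.0050 to 0.49 in CR31781, from -0.032 to 0.18 in CR44417, from -0.081 to 0.044 in CR32218, from -0.18 to 0.30 in dntRL, from -0.33 to 0.43 in the alphagamma-element gene CR32865, from -0.039 to 0.087 in CR45054 and from -0.089 to 0.17 in CR44922. The cause of these shifts was not tested. Genes of 20 to 100 counts varied more between libraries than those above, and the part of this in the number called was not tested.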
